A study of Mus musculus with 10 samples.

Results

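Notch1, Notch2 and Notch3 (receptors), Jag1, Jag2 and Dll1 (ligands) and Hes1, Hes5, Hey1 and Heyl (target genes) were taken by symbol from a table of gene expression in mouse back skin, and all 10 were found among its 24331 genes. The skin came from wild type C57BL/6 males, 7 to 8 weeks of age. Their hair had been pulled out with wax, which starts hair growth (anagen), and on day 9 afterwards cyclophosphamide, a prodrug whose products alkylate DNA, was given intraperitoneally at 150 mg/kg. Skin was collected just before the drug (0h) or 6h, 12h, 24h or 48h afterwards, giving 2 RNA libraries per time and 10 over the 5 times. The samples used here hold no mice given vehicle, so time after the drug and time after depilation cannot be told apart, nor can the time of day. The labels do not tell whether a time's libraries are from different mice. A p-value here therefore covers the spread between libraries alone, which may be technical.

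Notch receptors sit in the cell membrane and bind Jagged or Delta ligands on a neighbouring cell. Binding lets the protease Adam10 and then the gamma-secretase complex cut the receptor, and the freed intracellular part joins the DNA-binding protein Rbpj and switches on genes such as those of the Hes and Hey families, which encode repressors of transcription. In the growing hair follicle Notch signals act in the matrix and in the layers of the shaft and inner root sheath above it, and in the epidermis they favour differentiation. Notch3 and Heyl are also known from the smooth muscle of vessels, and Notch signals keep muscle stem cells at rest.

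Promoter sequences from RefSeq (build GRCm38.p6, the same assembly as mm10) were at hand for 7 of the 10 members, all but Hes1, Hey1 and Heyl. They are shown for Hes5, the target gene among the 7, and for Jag1 and Notch2, the members that passed the test over all times below. Each runs 5′ to 3′ on the gene's strand and holds only bases before both the RefSeq start and the GENCODE M21 start of the gene. Capitals mark TGGGAA, the core that Rbpj binds, on either strand.
Hes5: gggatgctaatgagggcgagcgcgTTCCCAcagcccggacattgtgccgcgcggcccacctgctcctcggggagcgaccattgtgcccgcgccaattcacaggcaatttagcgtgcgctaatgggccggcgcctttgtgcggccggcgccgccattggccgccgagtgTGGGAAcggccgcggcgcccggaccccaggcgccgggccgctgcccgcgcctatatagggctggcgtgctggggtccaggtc
Jag1: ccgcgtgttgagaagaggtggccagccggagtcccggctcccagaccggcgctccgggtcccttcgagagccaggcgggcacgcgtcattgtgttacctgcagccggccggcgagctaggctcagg
Notch2: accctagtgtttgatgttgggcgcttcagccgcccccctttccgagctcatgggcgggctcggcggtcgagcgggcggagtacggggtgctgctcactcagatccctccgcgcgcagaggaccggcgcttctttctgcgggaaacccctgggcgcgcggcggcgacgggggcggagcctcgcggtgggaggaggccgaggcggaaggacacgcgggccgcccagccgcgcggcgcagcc
These are chr4:154960673-154960922 (plus strand), chr2:137116645-137116770 (minus strand) and chr3:98013288-98013526 (plus strand). In the 250 bases before its start Hes5 had 2 matches to TGGGAA, at positions -226 and -82, and both extended to GTGGGAA. Over 32851 RefSeq promoters of that length, 21.6% held TGGGAA on either strand, 2.77% held it at least 2 times and 5.42% held GTGGGAA. None of the promoters of Notch1, Notch2, Notch3, Jag1, Jag2 and Dll1 held TGGGAA in that window. CACNAG, the N box that Hes repressors bind, was in 36.7% of all promoters and in those of Notch1 (1 match), Notch2 (1 match) and Notch3 (2 matches). A match is a string of letters and does not show binding.

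Levels are in FPKM, which counts fragments relative to transcript length and to all fragments mapped in the library, so levels can be set side by side between genes. They summed to between 862653 and 978550 per library. Hair keratins and keratin-associated proteins took between 13.4% and 18.7% of that sum in the libraries after the drug and 11.2% and 13.5% in the 0h libraries, which lowers the FPKM of other genes where it is larger. The keratin Krt14 of basal epidermis lay between 2086 and 5581 FPKM and the hair cortex keratin Krt35 between 258 and 978 FPKM, both being markers of the labelled tissue in anagen.

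At 0h Hes1, a repressor that keeps progenitors from differentiating, had the highest level of the 10, at 53.4 ± 2.72 FPKM (SD, n = 2). The ligands Jag2 (37.1 ± 5.23) and Jag1 (31.3 ± 2.27) and the receptor Notch1 (26.9 ± 3.97) came next. Notch3 (13.7 ± 2.55) and Notch2 (11.6 ± 0.403) stood at less than that, followed by Heyl (7.06 ± 0.636), Dll1 (6.25 ± 0.722), Hey1 (3.40 ± 0.207) and Hes5 (1.45 ± 0.334). Of neighbours in this order, Heyl and Dll1 overlapped between libraries and the others did not. Against all genes of the table at 0h, Hes1 lay at the 92.8 percentile and Hes5 at the 49.6 percentile.

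The order shifted with time. Jag1 was above Notch1 in both 0h libraries and below it in both libraries at 12h, 24h and 48h. Dll1 was above Heyl in every library at 24h and 48h. At 48h Jag2 (42.3 ± 1.93) and Hes1 (40.7 ± 0.849) overlapped, where at 0h, 6h, 12h and 24h Hes1 had been above Jag2 in both libraries.

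**Figure D1:**
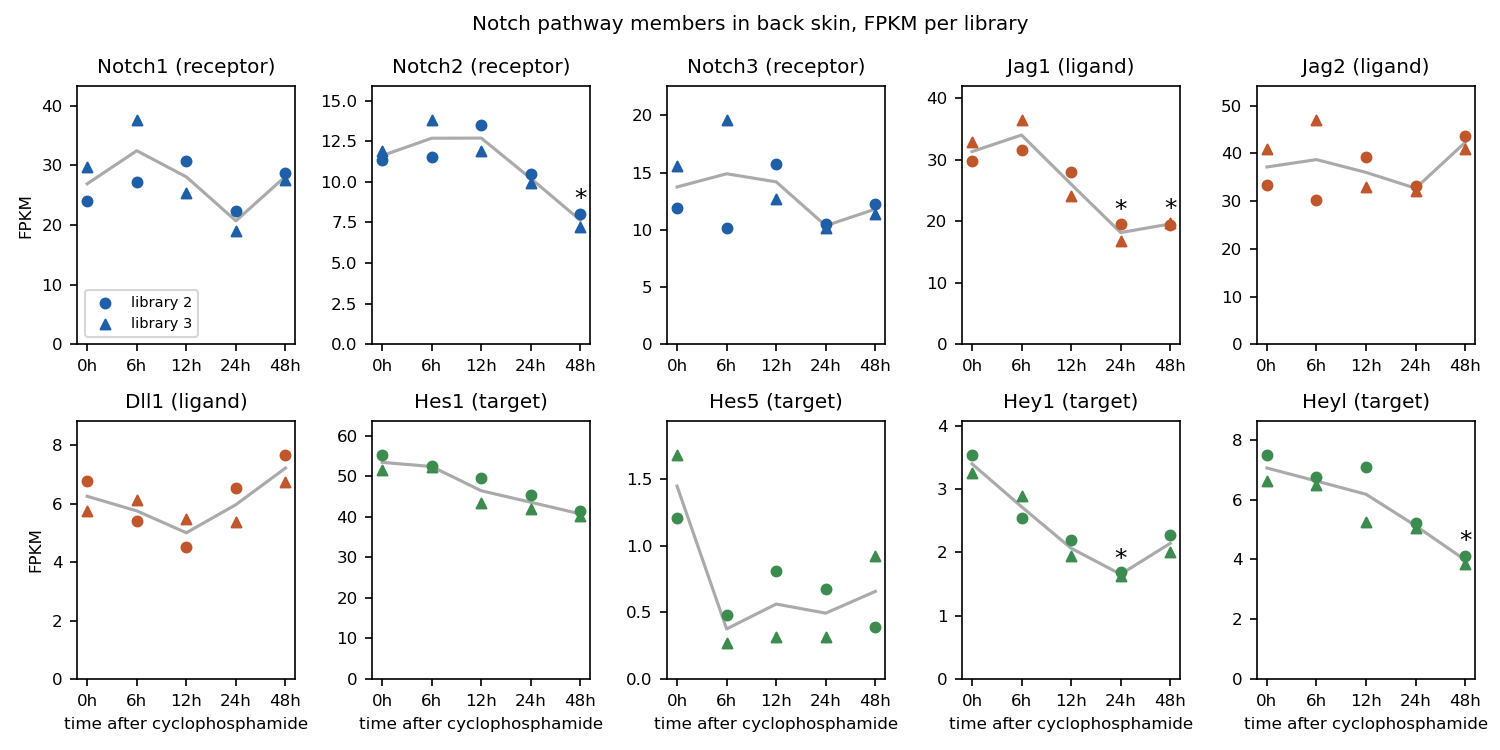
FPKM of each of the 10 members (y axis, from 0) in each library (circles, library 2; triangles, library 3) by time after cyclophosphamide (x axis, not to scale), with grey lines through the mean of the 2 libraries. Stars mark an adjusted p under 0.05 against 0h, which Jag1 reached at 24h and 48h, Hey1 at 24h and Notch2 and Heyl at 48h.

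Changes were tested with limma on log2(FPKM + 1) over 13625 genes, with all 10 libraries in 1 fit, and an adjusted p (Benjamini-Hochberg) under 0.05 was the threshold. All 10 members passed the filter of at least 1 FPKM in at least 2 libraries, Hes5 only through its 2 libraries at 0h. Of the 10 members, 2 changed at some time by the F test over the 4 later times, against 7.35% of all tested genes. These were Jag1 (F = 16.6, adjusted p = 0.0115) and Notch2 (F = 8.98, adjusted p = 0.0414).

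The earliest times gave no member past the threshold. At 6h 0 of 10 passed against 0h by limma, against 0.0440% of all tested genes, and 1 (Hes5) had an unadjusted p under 0.05, as did 12.3% of all tested genes. At 12h 0 of 10 passed, against 1.08% of all tested genes. There 2 (Hes5 and Hey1) had an unadjusted p under 0.05, as did 15.8% of all tested genes. Hes5 passed the filter only through 0h, so its part in these counts is no support for a change. At 24h 2 of 10 fell and 0 rose, against 3.32% of all tested genes called in either direction and 1.94% called lower. At 48h 3 of 10 fell and 0 rose, against 8.92% called and 4.12% called lower. The median log2 fold change of the 10 was 0.00 for 6h, -0.19 for 12h, -0.36 for 24h and -0.43 for 48h, beside 0.04, -0.07, -0.10 and -0.01 over all tested genes.

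Both libraries lay below both 0h libraries for 2 members at 6h (16.4% of all tested genes did so), namely Hes5 and Hey1. At 12h this held for 5 members (32.3% of all tested genes), and Notch2 lay wholly above (15.9%). At 24h it held for 9 members (37.2%), the exception being Dll1, which under all 3 other scalings had a higher mean at 24h. At 48h it held for 6 members (28.0%), and both libraries of Jag2 lay above those at 0h (27.0%). Hes5 is in each count of members below 0h, and it passed the filter only through its 0h libraries. With fewer cells of a type or less RNA per cell a level in whole skin falls alike, and these cannot be told apart here.

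**Figure D2:**
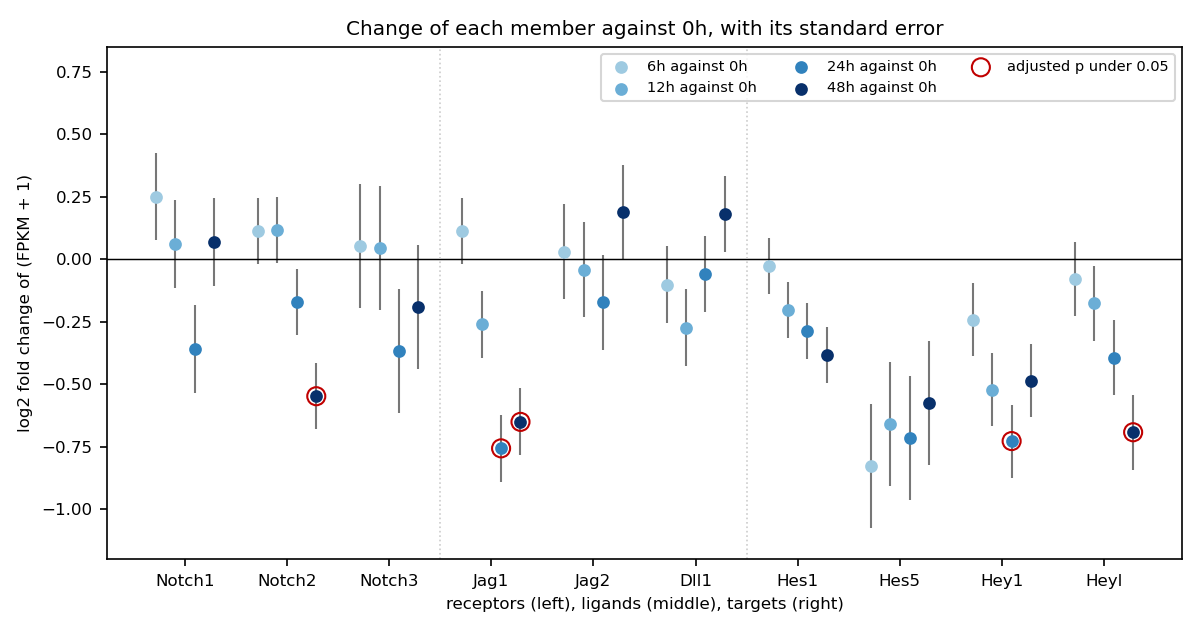
Log2 fold change of FPKM + 1 at 6h, 12h, 24h and 48h against 0h (y axis; light to dark blue) for each member (x axis), with the standard error of the limma fit as bars and red rings around values with an adjusted p under 0.05. The 4 target genes lie below 0 at all 4 times (Hes1 and Heyl at 6h do not with hair genes left out or without 0h library 2, nor Heyl at 12h without 12h library 3), while Notch1, Jag2 and Dll1 end above 0 at 48h. Hes5 passed the filter only through its 0h libraries, so its place below 0 is no support for a change.

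Notch1 is the main receptor of epidermis and hair matrix (chromosome 2, 26457903 to 26516663, mm10). It had 24.1 and 29.7 FPKM at 0h, 27.2 and 37.6 at 6h, 30.7 and 25.4 at 12h, 22.4 and 19.0 at 24h and 28.7 and 27.6 at 48h. Its lowest libraries were those at 24h, and at 48h it was back within the range of 0h. Neither time passed (24h against 0h, log2 change -0.36 with SE 0.18, adjusted p = 0.277; 48h against 0h, 0.07 with SE 0.18, adjusted p = 0.848). The 95% interval at 48h ran from -0.32 to 0.46, and changes within it are not excluded with 2 libraries a time.

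Notch2, a paralog of Notch1 also needed for marginal zone B cells (chromosome 3, 98013527 to 98150361), fell at 48h. It had 11.3 and 11.9 FPKM at 0h, 11.5 and 13.8 at 6h, 13.5 and 11.9 at 12h, 10.5 and 9.91 at 24h and 8.04 and 7.22 at 48h. Both 48h libraries were below all 8 others. The log2 fold change at 48h against 0h was -0.55 (SE 0.13, adjusted p = 0.031). The call ended without 0h library 2 (adjusted p = 0.0986), 0h library 3 (0.128), 48h library 2 (0.0812) or 48h library 3 (0.191), and with hair genes left out (0.122), over a range of 0.0193 to 0.191 across 19 alternatives.

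Notch3 is the receptor of vascular smooth muscle and pericytes (chromosome 17, 32120820 to 32166852). It had 11.9 and 15.5 FPKM at 0h, 10.2 and 19.6 at 6h, 15.7 and 12.7 at 12h, 10.5 and 10.2 at 24h and 12.2 and 11.4 at 48h. The 2 libraries at 6h were the lowest and the highest of all 10. No time passed, the log2 changes lying between -0.37 (24h, SE 0.25, adjusted p = 0.432) and 0.05 (6h, SE 0.25, adjusted p = 0.944).

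The receptors and Jagged ligands mostly deviated in the same direction between libraries of 1 time. Library 3 was above library 2 for 6 of the 10 members at 0h and for 7 at 6h. The same held for 1 at 12h, 0 at 24h and 2 at 48h. Among Notch1, Notch2, Notch3, Jag1 and Jag2 library 3 was above for all 5 at 0h and 6h. It was above for 0 of the 5 at 12h and 24h and for 1 at 48h. No share over all tested genes is given here, so the shift may not be particular to these genes. Library numbers mark no known batch, and the cause was not tested.

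Jag1, the Jagged ligand of the follicle and of vessels (chromosome 2, 137081456 to 137116644), had the largest F of the 10 members. It had 29.7 and 33.0 FPKM at 0h, 31.5 and 36.5 at 6h, 28.1 and 24.1 at 12h, 19.6 and 16.7 at 24h and 19.4 and 19.7 at 48h. All 4 libraries at 24h and 48h were below all 6 earlier ones. It fell at 24h (18.2 ± 2.02 against 31.3 ± 2.27 FPKM at 0h; log2 change -0.76 with SE 0.13, adjusted p = 0.0209). It was also lower at 48h (19.6 ± 0.227 FPKM; log2 change -0.65 with SE 0.13, adjusted p = 0.0163). At 12h it was at 26.1 ± 2.83 FPKM and did not pass (adjusted p = 0.385).

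The 24h call of Jag1 ended without 0h library 2 (adjusted p = 0.104), 0h library 3 (0.103) or 24h library 3 (0.147), with hair genes left out (0.06) and in a fit of 24h and 0h alone (0.0518), over a range of 0.0195 to 0.147 across 19 alternatives. The 48h call ended without 0h library 2 (0.0557), 0h library 3 (0.101), 48h library 2 (0.0814) or 48h library 3 (0.0982), and with hair genes left out (0.0611), over a range of 0.0132 to 0.101.

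Jag2, the other Jagged ligand (chromosome 12, 112907819 to 112929776), did not pass at any time. It had 33.4 and 40.8 FPKM at 0h, 30.3 and 47.1 at 6h, 39.1 and 32.9 at 12h, 33.1 and 32.2 at 24h and 43.7 and 40.9 at 48h. Both 48h libraries were above both 0h libraries, and the change did not pass (log2 change 0.19 with SE 0.19, adjusted p = 0.589, 95% interval -0.24 to 0.61). Dll1, a Delta ligand made by the dermal papilla and by basal keratinocytes (chromosome 17, 15367354 to 15376872), had 6.76 and 5.74 FPKM at 0h, 5.39 and 6.11 at 6h, 4.52 and 5.48 at 12h, 6.55 and 5.38 at 24h and 7.68 and 6.75 at 48h. No time of Dll1 passed, and its libraries at 48h overlapped those at 0h (log2 change 0.18 with SE 0.15, adjusted p = 0.509).

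Ratios within a library give the balance of ligands and receptors. Jag1 over Jag2 was 0.445 and 0.482 in the 48h libraries, against 0.889 and 0.807 in the 0h libraries. Jag1 over Notch1 was 0.677 and 0.716 at 48h, against 1.24 and 1.11 at 0h. Notch2 over Notch1 was 0.470 and 0.401 at 0h, 0.470 and 0.521 at 24h and 0.281 and 0.262 at 48h. Jag1 made up 27.4% and 29.3% of the summed FPKM of the 3 ligands at 48h, against 42.5% and 41.4% at 0h. With 2 libraries against 2 an exact permutation test cannot give a p below 0.333, so these ratios are a description.

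**Figure D3:**
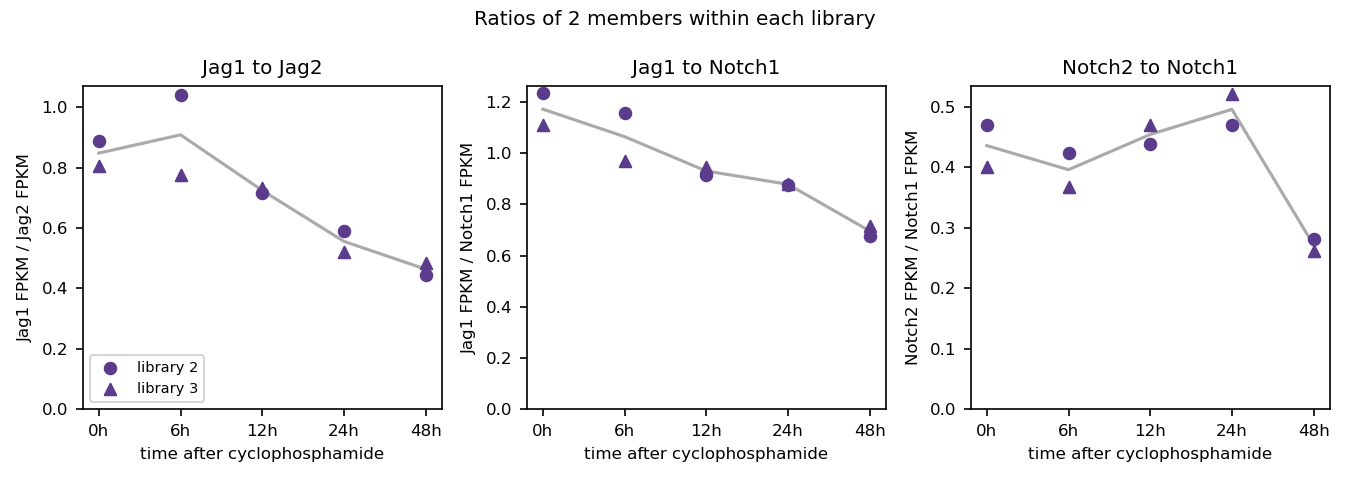
Ratio of the FPKM of 2 members (y axes, from 0) within each library (circles, library 2; triangles, library 3) by time (x axis), with grey lines through the means. Jag1 over Jag2 and Jag1 over Notch1 are lowest at 48h, and Notch2 over Notch1 is at 0.281 and 0.262 at 48h and at 0.367 or above in all earlier libraries.

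The 4 target genes were lower on average at every later time than at 0h. Among them Hes5 passed the filter only through its 0h libraries, so its lower later level is no support for a change. With hair genes left out or without 0h library 2, Hes1 and Heyl at 6h were higher, and so was Heyl at 12h without 12h library 3. Of the 4, 1 passed at 24h (Hey1) and 1 at 48h (Heyl).

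Hes1 (chromosome 16, 30064384 to 30067796) had 55.3 and 51.5 FPKM at 0h, 52.4 and 52.3 at 6h, 49.5 and 43.3 at 12h, 45.3 and 41.8 at 24h and 41.3 and 40.1 at 48h. Its 48h libraries were the lowest of the 10, but the difference missed the threshold (40.7 ± 0.849 at 48h against 53.4 ± 2.72 FPKM at 0h; log2 change -0.38 with SE 0.11, adjusted p = 0.0635) and did so under all 19 alternatives (0.0537 to 0.253).

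Heyl, a Hey family repressor found in vascular smooth muscle (chromosome 4, 123233556 to 123249875), fell at 48h. It had 7.51 and 6.61 FPKM at 0h, 6.77 and 6.48 at 6h, 7.10 and 5.26 at 12h, 5.20 and 5.05 at 24h and 4.13 and 3.84 at 48h. Both 48h libraries were below all 8 others (log2 fold change at 48h against 0h -0.69, SE 0.15, adjusted p = 0.0206). The call ended without 0h library 2 (adjusted p = 0.113), 0h library 3 (0.0601), 48h library 2 (0.0738) or 48h library 3 (0.133), over a range of 0.0131 to 0.133 across 19 alternatives, and held in all others.

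Hey1, the related repressor (chromosome 3, 8663359 to 8667256), fell at 24h. It had 3.54 and 3.25 FPKM at 0h, 2.54 and 2.90 at 6h, 2.19 and 1.94 at 12h, 1.69 and 1.62 at 24h and 2.28 and 2.01 at 48h. All 8 libraries after the drug were below both 0h libraries, with the lowest at 24h (1.65 ± 0.0482 against 3.40 ± 0.207 FPKM; log2 change -0.73 with SE 0.15, adjusted p = 0.0295). At 48h it did not pass (log2 change -0.49 with SE 0.15, adjusted p = 0.0687), although it did after quantile normalization (0.0431) and without an intensity trend (0.0435). The 24h call ended without 0h library 2 (0.164), 0h library 3 (0.0918), 24h library 2 (0.0964) or 24h library 3 (0.163), with no filter (0.0544), with hair genes left out (0.0754) and in a fit of 24h and 0h alone (0.0886), over a range of 0.0233 to 0.164 across 18 alternatives.

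Hes5 (chromosome 4, 154960923 to 154962371), whose promoter held both Rbpj core matches shown above, was the least abundant member. It had 1.21 and 1.68 FPKM at 0h, 0.477 and 0.274 at 6h, 0.812 and 0.312 at 12h, 0.672 and 0.315 at 24h and 0.389 and 0.924 at 48h. Every library after the drug was below both 0h libraries. No time passed, and 6h came closest by unadjusted p (0.376 ± 0.144 against 1.45 ± 0.334 FPKM; log2 change -0.83 with SE 0.25, unadjusted p = 0.00779, adjusted p = 0.235). With a pseudocount of 0.1 the log2 change was -1.72 (adjusted p = 0.298). Hes5 entered the test only through its 0h libraries, so its place below 0h is no support for a change.

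Between later times 0 of 10 members passed for 12h against 6h, 24h against 12h and 48h against 24h by limma, with 1, 2 and 2 at an unadjusted p under 0.05. Of all tested genes 0%, 0.0220% and 2.26% passed, and 11.4%, 9.9% and 18.8% had an unadjusted p under 0.05. For 48h against 6h 3 of 10 passed, all lower at 48h, against 5.75% of all tested genes called and 3.03% called lower. These were Jag1 (19.6 ± 0.227 at 48h against 34.0 ± 3.53 FPKM at 6h; log2 change -0.76 with SE 0.13, adjusted p = 0.0119), Notch2 (7.63 ± 0.578 against 12.7 ± 1.61; -0.66, SE 0.13, adjusted p = 0.0202) and Heyl (3.98 ± 0.208 against 6.62 ± 0.203; -0.61, SE 0.15, adjusted p = 0.0431). The calls of Jag1 and Notch2 ended without 6h library 3 (adjusted p = 0.0594 and 0.0877), 48h library 2 (0.0668 and 0.0658) or 48h library 3 (0.0908 and 0.157), and these 2 calls held without any other single library; that of Notch2 also ended in a fit of the 2 times alone (0.0796). That of Heyl passed in 7 of 19 alternatives (adjusted p from 0.0298 to 0.214), and with 1 library left out it held only without either 12h library. Both libraries at 48h were below both at 6h for 5 members (30.8% of all tested genes), which were Notch2, Jag1, Hes1, Hey1 and Heyl. Those of 1 member, Dll1, were above, with no share over all genes given here. At 48h both libraries were above both 24h libraries for 5 members (37.6% of all tested genes), which were Notch1, Notch3, Jag2, Dll1 and Hey1, and below them for 3 (16.7%), which were Notch2, Hes1 and Heyl.

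The rest of the pathway was a list of 54 other genes, all in the table and 47 of them tested. It holds modifiers of the receptors, proteases, the nuclear complex, turnover factors and further ligands and repressors. Of the 47, 0 passed at 6h, 12h or 24h against 0h by limma, with 4, 5 and 4 at an unadjusted p under 0.05, beside 12.3%, 15.8% and 20.6% of all tested genes. At 48h 2 fell and 0 rose, with a median log2 fold change of -0.04 (all tested genes -0.01). These were Hes2 and Mfap5, so 4.26% of the list passed beside 8.92% of all tested genes. For 12h against 6h and 24h against 12h 0 of the 47 passed. For 48h against 24h 2 passed, both lower, beside 2.26% of all tested genes called. They were again Hes2 (log2 change -1.15, limma adjusted p = 0.049) and Mfap5 (-1.13, limma adjusted p = 0.0288). The Hes2 call passed in 4 of 18 alternatives and that of Mfap5 in 14 of 19.

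Hes2, a repressor related to Hes1, had 7.43 and 5.62 FPKM at 0h, 5.60 and 6.58 at 6h, 7.60 and 6.34 at 12h, 5.11 and 2.36 at 24h and 0.963 and 1.13 at 48h. Both 48h libraries were below all 8 others, and the 2 libraries at 24h were far apart. At 48h it fell by 1.87 on the log2 scale (1.05 ± 0.119 against 6.52 ± 1.28 FPKM at 0h; SE 0.25, adjusted p = 0.00238), which passed in all 18 alternatives that tested it (up to 0.0315). Without 24h library 2 it also passed at 24h (adjusted p = 0.0319, against 0.147 with all libraries). Mfap5, a microfibril protein reported to bind Jagged and Notch proteins, had 15.1 and 21.05 FPKM at 0h, 15.1 and 18.6 at 6h, 12.2 and 9.85 at 12h, 22.3 and 17.3 at 24h and 9.91 and 7.17 at 48h. It fell at 48h (log2 change -0.998 with SE 0.21, adjusted p = 0.0184), a call that ended without 0h library 3 (0.124) or 48h library 3 (0.145).

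Other named parts of the pathway did not pass at any time against 0h. Rbpj was at 5.48 ± 0.494 at 48h against 5.30 ± 0.439 FPKM at 0h (95% interval of the log2 fold change -0.26 to 0.34). Its largest shift was at 6h (7.12 ± 0.575 FPKM, log2 change 0.36, limma adjusted p = 0.326). Nrarp, a target gene that feeds back on the receptor, was at 63.3 ± 6.35 against 61.5 ± 3.25 FPKM (-0.24 to 0.31). Lfng, a glycosyltransferase that tunes which ligand a receptor answers to, was at 25.2 ± 1.46 against 25.9 ± 0.0503 FPKM (-0.35 to 0.27). At 6h Lfng was at 19.8 ± 0.681 FPKM (log2 change -0.37, limma adjusted p = 0.328). Notch4 and Dll4, a receptor and a ligand of endothelium, were low throughout, at 1.80 ± 0.638 against 1.35 ± 0.00974 FPKM and at 1.87 ± 0.724 against 1.19 ± 0.668 FPKM. Dll4 was at 0.611 ± 0.0503 FPKM at 12h (log2 change -0.41, limma adjusted p = 0.473). Of 9 tested genes of cleavage, among them Adam10 (13.9 ± 0.396 against 15.4 ± 2.06 FPKM), 0 passed at 48h, with log2 fold changes from -0.13 to 0.26. For 48h against 6h Neurl1b, a ubiquitin ligase of ligand uptake, rose (3.31 ± 0.286 against 1.63 ± 0.472 FPKM; log2 change 0.72 with SE 0.18, adjusted p = 0.0443), a call that ended without 6h library 3 (0.163), 48h library 2 (0.192), 48h library 3 (0.165), either 0h library (0.0589 and 0.0591) or either 12h library (0.0609 and 0.0615). It also ended with a pseudocount of 0.1 (0.0503), with no filter (0.0706), with hair genes left out (0.0537) and in a fit of the 2 times alone (0.108), so that it passed in 7 of 18 alternatives. Hes2 and Mfap5 fell in that comparison as well (-1.79 and -0.91 on the log2 scale, adjusted p = 0.00492 and 0.0352), Mfap5 not without either 6h library (0.065 and 0.135) or either 48h library (0.0533 and 0.221), with no filter (0.0776), with hair genes left out (0.0582) or in a fit of the 2 times alone (0.0669).

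**Figure D4:**
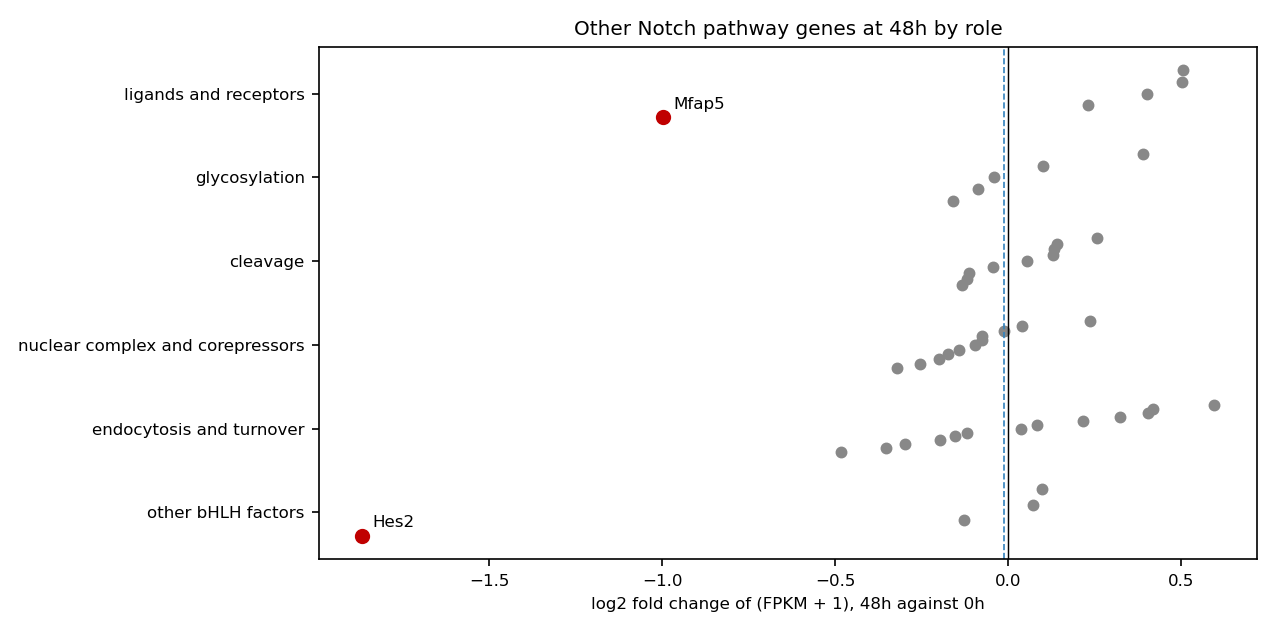
Log2 fold change of FPKM + 1 at 48h against 0h (x axis) of the 47 tested other Notch pathway genes, 1 point a gene, grouped by role (y axis). Red points with names had an adjusted p under 0.05, and the dashed line is the median of all tested genes. Hes2 and Mfap5 stand apart at -1.87 and -0.998, and the other genes lie between -0.48 and 0.60.

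The genes most like Jag1 in Pearson correlation of log2(FPKM + 1) over the 10 libraries, of 8726 genes compared, were Neo1 (r = 0.976), a receptor for netrins, Peo1 (0.971), a mitochondrial DNA helicase, Tnks2 (0.97), a tankyrase, and Dpf2 (0.969), a chromatin remodelling subunit. Neo1 averaged 15.8 FPKM in 0h skin and 16.0 in 6h skin, then 9.79 at 12h, and was at 6.42 by 24h and 7.44 by 48h. Those most like Notch2 were Emp2 (r = 0.984), a membrane protein of epithelia, Lrrc16a (0.983), an actin regulator, Eml4 (0.972), a microtubule protein, and Sema4d (0.97), a semaphorin. Emp2 averaged 175 FPKM in 0h skin and 188 in 6h skin, then 185 at 12h, and was at 158 by 24h and 138 by 48h. Every gene was measured in the same 10 libraries, with their 5 times and their differing depth, so such values describe a shared course only.

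Markers of cell types moved over the same times. Of 10 hair matrix and precortex genes 10 fell at 48h, and their summed FPKM was 1858 to 1871 at 0h, 1308 to 1618 at 24h and 744 to 821 at 48h. Of 8 inner root sheath genes 5 fell at 48h, and the list summed to 23633 to 23879 FPKM at 0h, 30285 to 33272 at 24h and 13970 to 16448 at 48h. Of 7 basal epidermis genes 4 rose at 48h (8905 to 9938 FPKM summed, against 4248 to 5041 at 0h), and of 7 tested suprabasal genes 2 rose (9130 to 9950, against 6943 to 7986). Of 8 mature skeletal muscle genes 6 fell at 48h (4757 to 5524 FPKM summed, against 10087 to 11368 at 0h). Their sum was already at 5396 to 6587 FPKM at 6h. Myh1 of this list went the other way without passing (81.6 and 74.2 FPKM at 0h, 142 and 296 at 48h). Of 8 melanocyte genes 2 rose, and 0 passed among the tested genes of dermal papilla, dermal fibroblasts, adipocytes, macrophages and lymphocytes. No list had a member at 0 in every library. The part of these shifts in the falls of Jag1, Notch2, Heyl, Hey1, Hes2 and Mfap5 was not tested.

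For vessels, where Notch3, Jag1 and Heyl are also made, 8 smooth muscle and pericyte genes were listed. They summed to 310 to 350 FPKM at 0h, 346 to 354 at 24h and 289 to 310 at 48h. At 48h there was 1 rise and 1 fall. The log2 fold change at 48h was above 0 for 5 of the 8 and below it for 3, with a median of 0.34. Tagln, the largest part of the sum, had 223 and 179 FPKM at 0h and 129 and 91.7 at 48h. Mcam had 14.1 and 17.2 FPKM at 0h and 60.2 and 85.8 at 48h. The 9 endothelial genes summed to 99.4 to 132 FPKM at 48h and 57.1 to 77.7 at 0h, with 2 rises. Of 4 genes of muscle stem cells and early muscle cells, 2 were tested and both rose at 48h (25.4 to 37.1 FPKM summed, against 1.90 to 2.28 at 0h), of which Myog, a factor of differentiating muscle, was at 29.5 and 20.99 FPKM at 48h against 0.865 and 0.867 at 0h. The stem cell marker Pax7 stayed at 0.0973 FPKM or below in every library.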

How the data were processed

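The authors deposited 1 gene table with a column per library, read here as FPKM because Cufflinks is named and the values are not whole numbers; its header names no unit. TopHat2 2.1.1, Cufflinks 2.2.1 and build mm10 are named per the submitters' processing notes, with no role or order. How strand was used, which annotation served and whether libraries were rescaled are points not given in the sources used here. Of 24358 rows, 27 whose symbol had become a date were left out. The columns number libraries 2 and 3 and the labels 1 and 2, so a column was matched to its time only. FPKM hides the number of reads; the commonest ratio between low values (up to 0.1 FPKM) put relative depth between 1 and 1.48 (0h library 2 and 0h library 3).

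Values were analysed as log2(FPKM + 1) with limma 3.58.1 in R 4.3.3 (1 mean per time, empirical Bayes with an intensity trend, 5 residual and 4.92 prior degrees of freedom), two-sided, on genes reaching 1 FPKM in 2 or more libraries. Fold changes on this scale understate the change of low genes. The fit was tested on simulated data. Alternatives were a pseudocount of 0.1, no filter, a mean of at least 5 FPKM, median-of-ratios scaling, quantile normalization, hair genes left out with rescaling, no intensity trend, only the 2 times compared, a replicate block and each library left out.

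The members and lists were chosen with earlier results of these data known. Named genes were the 10 members, other pathway genes past the threshold, Notch4, Dll4, Rbpj, Lfng and Nrarp, and the 4 genes most correlated with each member past the F test, among genes with a mean of at least 5 FPKM and leaving out predicted genes and clones. Adam10, Krt14, Krt35, Myog and Pax7 were named after their values were seen. Gene positions are from GENCODE M21.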

Additional observations from a re-analysis of the deposited data

Results flagged for a closer look

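Between 48h and 6h the changes against 0h differed for 3 members by the test of 48h against 6h itself (limma, adjusted over 13625 genes). The difference was -0.76 on the log2 scale for Jag1 (adjusted p = 0.0119), -0.66 for Notch2 (adjusted p = 0.0202) and -0.61 for Heyl (adjusted p = 0.0431). Each had both 48h libraries below both 6h libraries, which adds no support, since the same comparison picked these genes. The comparisons of 48h and of 6h with 0h share the 0h libraries. No group had the 4 libraries needed to look for a single one far from the rest.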

How the results depend on the processing

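The count of members past the threshold was 2 at 24h against 0h, but 1 with no filter or with a mean of at least 5 FPKM and 0 with hair genes left out or in a fit of the 2 times alone. At 48h it was 3, but 1 with hair genes left out and 4 with quantile normalization or without an intensity trend, where Hey1 passed as well. For 48h against 6h it was 3, and 1 in a fit of those times alone. The F test gave 2, and 1 with no filter or with hair genes left out. With each library left out these counts ranged from 0 to 2, 0 to 3, 0 to 3 and 0 to 2; leaving out a library of either time compared leaves 1 library there, which is then assumed to vary like the others. Hey1 (mean 2.40 FPKM) and Hes2 (mean 4.87 FPKM) lie below the filter of a mean of at least 5 FPKM, so they were not tested there. The causes of the other differences were not tested. At 6h, at 12h and between neighbouring later times the count stayed at 0 under every alternative run. Of the 47 other pathway genes 2 passed at 48h against 0h, 1 with a mean of at least 5 FPKM and 1 to 3 with each library left out (1 without 0h library 3 or 48h library 3); at 24h the count was 0, and 1 without 24h library 2. Of 1504 values of members under the alternatives, 45 lost the call, 2 gained it and 50 changed sign, all 50 in values that had not passed; Dll1 at 24h was above 0 under all 3 scalings.

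With the replicate block the counts were 0, 0, 2 and 3 at 6h, 12h, 24h and 48h against 0h, and 3 by the F test, with 3 other pathway genes at 48h. The labels do not tell whether library numbers pair the samples. Across genes, the difference of library 3 and library 2 correlated by over 0.1 in 5 of 10 pairs of times (-0.104 to 0.216, median 0.0993). Whether this comes from a pairing was not tested. Over all genes the block moved the counts from 6, 147, 452 and 1215 to 99, 322, 611 and 1409, and the lowest counts with a library left out were 1, 0, 34 and 339. The split at 24h was 187 higher and 265 lower as deposited, 307 higher and 162 lower with median-of-ratios scaling, 272 higher and 190 lower with quantile normalization, and 194 higher and 133 lower without hair genes; at 12h it was 38 and 109, 40 and 48, 45 and 58, and 31 and 49 in that order, and at 48h 654 and 561 as deposited and 770 and 325 without hair genes. As deposited the median of all genes was -0.115 for 12h against 6h, and -0.003 after median-of-ratios scaling. Exons of Notch1, Notch3, Dll1 and Hes5 overlap genes of the other strand in GENCODE M21, so their reads cannot be told apart if strand was not used. Exons of Notch2 overlap those of Gm42820 on the same strand, where strand does not tell reads apart.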
